A study of Homo sapiens with 6 samples.

Results

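Krüppel-like factors (KLFs) are transcription factors whose shared C-terminal zinc fingers bind GC-rich and CACCC sequences of DNA. The genes described here are the 10 family members KLF2, KLF3, KLF4, KLF5, KLF6, KLF7, KLF9, KLF10, KLF11 and KLF13. They were listed by symbol, without a threshold on their values but with earlier results of these data known. They are 10 of the 26255 genes listed for every sample, and 9 of them reached the mean of 1 FPKM (sequenced fragments scaled to transcript length and to library size) required for testing, KLF13 being the exception. RNA sequencing was performed on 22RV1 cells, an established human castration-resistant prostate cancer (CRPC) cell line, treated with DMSO (3 samples) or with 10 nM bruceantin (BCT), a plant quassinoid that the study examined as a binder of the chaperone HSP90 (3 samples). Both groups were collected after 24 h and differ, by their labels, only in the compound, and a single cell line is the model. Nothing in the labels says that the samples of a group came from separate cultures, so the p-values measure the spread between these samples, which may be technical.

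KLFs differ mainly in the part of the protein outside the zinc fingers, which recruits either coactivators or corepressors. KLF2, KLF4, KLF5, KLF6 and KLF7 are mostly known as activators, KLF3 represses through CTBP corepressors, and KLF9, KLF10, KLF11 and KLF13 bind the SIN3A corepressor complex. Several members are immediate early or hormone-induced genes with short-lived mRNA and protein. In prostate epithelium, KLF5 and KLF6 have been studied as genes that restrain growth and are lost or altered in tumors.

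The members most relevant to the comparison are first shown by the sequence in front of their genes. Windows of 250 bases before the annotated start were taken from RefSeq (GRCh38.p14), where 8 of the 10 members had an entry, all except KLF3 and KLF10. The windows of KLF6 and KLF4, whose transcripts rose with BCT, KLF2, which is related to KLF4, KLF15, the family member that fell, and KLF9, which has no GC box in its window, are printed 5′ to 3′ in lower case. Capitals mark the GC box, GGGCGG on either strand, a letter string bound by SP and KLF proteins, and in KLF2 also TAAATTTA, a form of the MEF2 motif that was added to the search after this sequence had been seen.
KLF6 (chr10:3785210-3785459, minus strand): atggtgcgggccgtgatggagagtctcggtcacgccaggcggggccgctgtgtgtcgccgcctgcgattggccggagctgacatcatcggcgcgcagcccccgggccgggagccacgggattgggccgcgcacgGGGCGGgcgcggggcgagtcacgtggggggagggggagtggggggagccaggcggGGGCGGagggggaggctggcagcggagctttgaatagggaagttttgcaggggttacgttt
KLF4 (chr9:107489770-107490019, minus strand): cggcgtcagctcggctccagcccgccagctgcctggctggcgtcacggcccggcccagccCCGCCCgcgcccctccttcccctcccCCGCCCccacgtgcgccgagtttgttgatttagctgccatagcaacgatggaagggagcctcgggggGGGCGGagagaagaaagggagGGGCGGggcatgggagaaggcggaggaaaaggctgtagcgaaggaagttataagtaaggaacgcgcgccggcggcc
KLF2 (chr19:16324576-16324825, plus strand): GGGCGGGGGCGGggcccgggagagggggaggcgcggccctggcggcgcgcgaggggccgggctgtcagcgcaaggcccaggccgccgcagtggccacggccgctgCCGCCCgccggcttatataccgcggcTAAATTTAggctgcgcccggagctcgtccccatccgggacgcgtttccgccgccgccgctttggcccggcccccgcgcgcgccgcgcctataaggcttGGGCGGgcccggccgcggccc
KLF15 (chr3:126357409-126357658, minus strand): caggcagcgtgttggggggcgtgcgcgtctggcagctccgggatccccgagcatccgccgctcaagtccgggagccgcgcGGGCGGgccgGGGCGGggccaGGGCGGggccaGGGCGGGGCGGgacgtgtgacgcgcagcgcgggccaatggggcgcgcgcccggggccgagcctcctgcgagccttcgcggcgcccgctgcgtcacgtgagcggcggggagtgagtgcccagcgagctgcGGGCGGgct
KLF9 (chr9:70414658-70414907, minus strand): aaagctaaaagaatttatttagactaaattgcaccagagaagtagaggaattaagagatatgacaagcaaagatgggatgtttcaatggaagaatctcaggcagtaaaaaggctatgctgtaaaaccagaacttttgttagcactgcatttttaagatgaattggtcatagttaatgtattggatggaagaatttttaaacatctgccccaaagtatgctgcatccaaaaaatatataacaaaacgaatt

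GC boxes were present in the windows of 7 of the 8 members (KLF2, KLF4, KLF5, KLF6, KLF7, KLF11 and KLF13), in 8 of their 13 windows, whereas 42.6% of the 35116 windows of all 27305 genes held one. KLF4 and KLF2 each had 4 GC boxes and KLF6 had 2, some of them adjoining, and KLF15 had 6. GC content was 72.4% for KLF6, 69.2% for KLF4 and 80.4% for KLF15, against a median of 58.0% for all windows. KLF9 differed from these, with a GC content of 32.4% and no GC box. The cAMP response element TGACGTCA occurred only in KLF11 among the 8 members and in 1.65% of all windows. TATAAA occurred in KLF5 (10.7% of all windows), CCCCACCC in KLF7 (10.4%) and TAAATTTA in KLF2 (0.541%). The AP-1 letters TGACTCA (4.20% of all windows), CCATATTAG of serum response elements (0.074%), CTAAAAATA of MEF2 sites (0.461%) and CCACACCC (2.97%) were found in none of the 8 members. GC boxes stood in front of members that rose and of members that did not, and such matches describe letters, not bound sites.

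Across the transcriptome, 1764 genes (13.9% of the 12729 tested) were called higher with BCT and 2263 (17.8%) were called lower. A call required an absolute log2 fold change above 0.85 and a false discovery rate below 0.05 in limma on log2(FPKM + 0.1), a scale that understates the change of genes with low levels. Of the 9 tested KLF members, 5 were called higher, KLF10, KLF6, KLF4, KLF7 and KLF5, and 0 were called lower. The other 4, KLF2, KLF3, KLF9 and KLF11, passed the false discovery rate but not the fold change threshold. The median log2 fold change was 1.40 over the 9 members and -0.038 over all tested genes. Over all 11 tested KLF genes, which add KLF15 and KLF16, it was 0.78, with 5 called higher and 1 lower. All 9 members had groups that did not overlap, 7 higher and 2 lower, but so did 85.3% of all tested genes, so the absence of overlap is not particular to KLF genes. In RNA from whole cultures, a change in the number of cells of a type and a change in RNA per cell cannot be told apart.

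KLF10, the TGF-β inducible early gene, had the largest rise of the members and ranked 138th among all tested genes by log2 fold change. Its level was 11.9, 11.6 and 13.8 FPKM in DMSO replicates 1, 2 and 3 and 56.1, 86.0 and 82.2 FPKM in BCT replicates 1, 2 and 3. The means were 12.4 ± 1.15 and 74.7 ± 16.3 FPKM (SD, n = 3 each), a 6.01-fold difference. The lowest BCT sample stood above every DMSO sample, and the log2 fold change was 2.56 (SE 0.15, 95% interval 2.20 to 2.91, limma adjusted p = 1.8e-06).

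KLF6, an immediate early gene on chr10:3818188-3827473 (hg19, minus strand), was second. It measured 7.79, 7.11 and 7.92 FPKM in the DMSO samples and 35.1, 46.7 and 42.8 FPKM in the BCT samples. The mean went from 7.61 ± 0.436 to 41.6 ± 5.90 FPKM, a 5.46-fold difference (log2 fold change 2.43, SE 0.10, limma adjusted p = 6.0e-07), with no overlap between the groups. KLF4, a regulator of epithelial differentiation and a factor used to reprogram cells to pluripotency, lies at chr9:110247133-110252047 (hg19, minus strand). Its levels were 11.9, 9.66 and 11.3 FPKM with DMSO and 42.4, 48.6 and 48.0 FPKM with BCT. KLF4 thus rose 4.24-fold, from 10.9 ± 1.14 to 46.4 ± 3.41 FPKM (log2 fold change 2.08, SE 0.088, limma adjusted p = 6.0e-07), and the 3 BCT samples were closer to each other than those of KLF10.

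**Figure D1:**
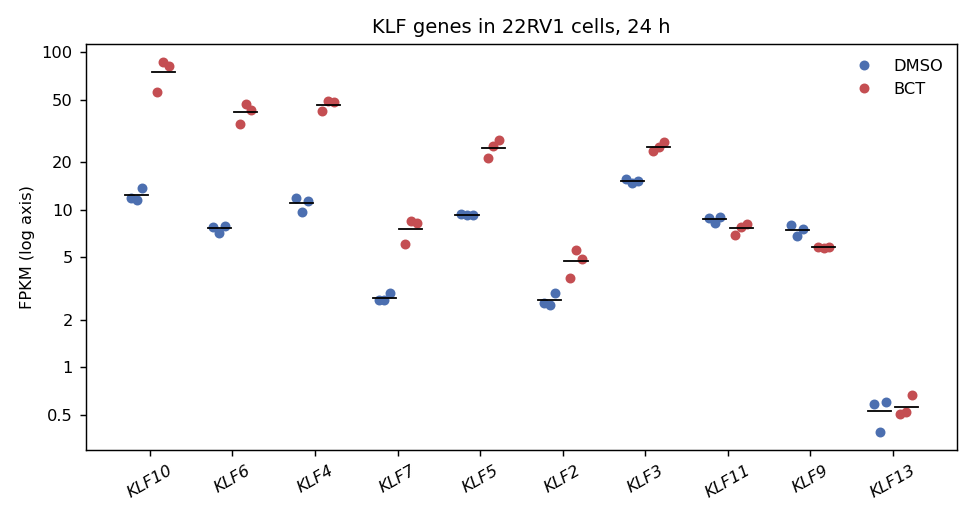
Expression of the 10 KLF genes in each sample, in FPKM on a log axis, with DMSO and BCT samples as points (n = 3 each) and group means as lines. KLF10, KLF6 and KLF4 lie between 7.11 and 13.8 FPKM in the DMSO samples and between 35.1 and 86.0 FPKM in the BCT samples, whereas the KLF13 groups overlap.

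KLF5 and KLF7 rose by a smaller amount. KLF5, a factor of proliferating epithelium on chr13:73629114-73651680 (hg19, plus strand), had 9.43, 9.28 and 9.19 FPKM in DMSO samples against 21.3, 25.5 and 27.6 FPKM in BCT samples. The means were 9.30 ± 0.119 and 24.8 ± 3.22 FPKM, a 2.67-fold difference (log2 fold change 1.40, SE 0.091, limma adjusted p = 2.5e-06). KLF7, the closest relative of KLF6 and best known from neurons, lies at chr2:207938862-208031970 (hg19, minus strand). It measured 2.69, 2.66 and 2.94 FPKM with DMSO and 6.05, 8.45 and 8.27 FPKM with BCT. KLF7 thus rose 2.74-fold, from 2.77 ± 0.153 to 7.59 ± 1.34 FPKM (log2 fold change 1.41, SE 0.13, limma adjusted p = 1.4e-05). The intervals of KLF5 (1.19 to 1.61) and KLF7 (1.11 to 1.70) lay below those of KLF4 (1.87 to 2.28), KLF6 (2.19 to 2.66) and KLF10. BCT replicate 1 was the lowest BCT sample for each of the 5 called members and for 1515 of the 1764 genes called higher (85.9%), so this order among samples was not particular to KLF genes.

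KLF2 and KLF3 were higher in every BCT sample than in every DMSO sample, by less than the threshold. KLF2, a factor of quiescent endothelium and T cells on chr19:16435651-16438339 (hg19, plus strand), read 2.55, 2.48 and 2.96 FPKM under DMSO, and 3.70, 5.54 and 4.85 FPKM under BCT (log2 fold change 0.78, SE 0.15, 95% interval 0.44 to 1.12, limma adjusted p = 0.0011). Its interval spans the threshold, and the call rested on single samples: without DMSO replicate 3 the log2 fold change was 0.86 and without BCT replicate 1 it was 0.94, both called higher. KLF3, a CTBP-dependent repressor on chr4:38614322-38703129 (hg19, plus strand), had the highest DMSO level of the members, at 15.7, 14.7 and 15.1 FPKM, and measured 23.7, 25.1 and 26.7 FPKM with BCT. The difference was 1.66-fold (log2 fold change 0.73, SE 0.059, limma adjusted p = 7.8e-06). KLF3-AS1, an antisense transcript listed over the same interval, was at 0.103 to 0.228 FPKM with DMSO and 0.101 to 0.161 FPKM with BCT. The library kit does not mark strand, so reads of KLF3 and KLF3-AS1 cannot be told apart.

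KLF9 and KLF11 had slightly lower FPKM with BCT, a direction that turned when every sample was scaled to the same FPKM sum (log2 fold changes 0.39 and 0.57). Scaled to the same sum without MIR6087, they were at 0.02 and 0.19 and missed the false discovery rate (limma adjusted p = 0.82 and 0.07). KLF9, a glucocorticoid and thyroid hormone responsive gene on chr9:72999513-73029573 (hg19, minus strand), had DMSO levels of 8.02, 6.76 and 7.59 FPKM and BCT levels of 5.81, 5.68 and 5.80 FPKM (log2 fold change -0.36, SE 0.074, limma adjusted p = 0.0018). KLF11, the closest relative of KLF10 on chr2:10183682-10194963 (hg19, plus strand), had DMSO levels of 8.89, 8.23 and 8.93 FPKM and BCT levels of 6.90, 7.76 and 8.15 FPKM (log2 fold change -0.19, SE 0.076, limma adjusted p = 0.043). KLF11 was just inside the false discovery rate and missed it in 13 of 18 alternatives, those other than equal FPKM sums and a test against the fold threshold, with limma adjusted p from 0.032 to 0.14. KLF13, a factor first described in activated T cells, was low in all samples, at 0.588, 0.390 and 0.603 FPKM with DMSO and 0.505, 0.522 and 0.663 FPKM with BCT, and the groups overlapped. Without a filter on low values its log2 fold change was 0.09 (limma adjusted p = 0.70).

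The scaling matters because the summed FPKM differed between the groups, and only part of this difference lay in MIR6087. This single short RNA took 43.5 to 55.3% of the summed FPKM in the DMSO samples and 31.7 to 32.5% in the BCT samples. The sums themselves were 1169649 to 1572321 FPKM with DMSO and 757534 to 799838 FPKM with BCT. Scaling all samples to equal sums moved the median change over tested genes to 0.730 on the log2 scale, and to 0.349 when MIR6087 was left out of the sums. KLF4, KLF5, KLF6, KLF7 and KLF10 were called higher under both scalings. KLF2 (1.53 and 1.16) and KLF3 (1.49 and 1.11) then passed as well, so that 7 members were called. Of all tested genes, 5706 of 12795 and 3402 of 12738 were called higher under these scalings, against 1764 of 12729 as deposited. Relative to those shifted medians, KLF9 and KLF11 stayed below the median gene.

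**Figure D2:**
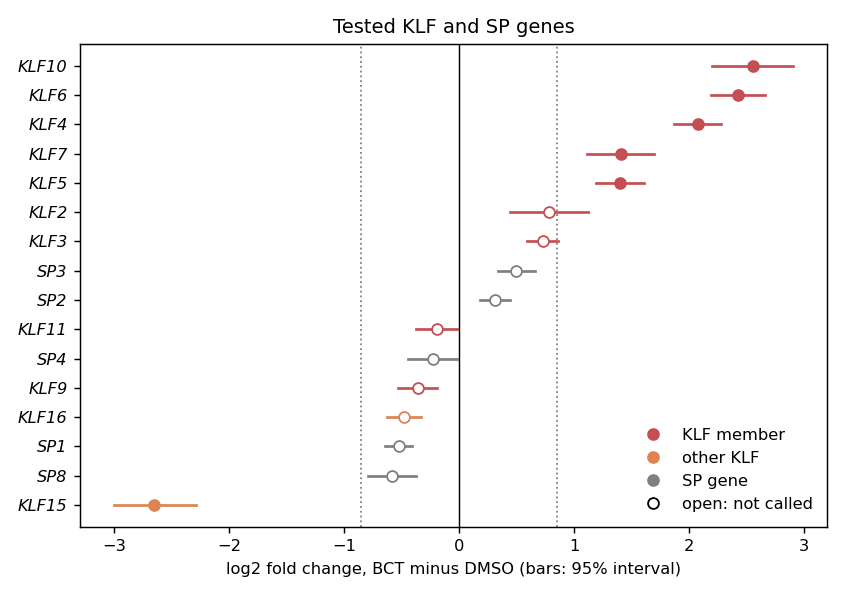
Log2 fold changes (BCT minus DMSO) of the KLF members and other tested KLF and SP genes, with 95% intervals as bars and the threshold of 0.85 in either direction as dotted lines. KLF10, KLF6, KLF4, KLF7 and KLF5 lie above the threshold and KLF15 at -2.65 below it, and the negative values of KLF9, KLF11, KLF16, SP1, SP4 and SP8 turn positive with equal FPKM sums.

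As FPKM is a level per transcript length, levels can be compared between members. The FPKM of the 10 members summed to 79.4, 73.0 and 80.3 in the DMSO samples and to 202, 260 and 255 in the BCT samples, a 3.08-fold difference of the means. KLF3 held the largest share of this sum with DMSO (19.6%), followed by KLF10 (16.0 ± 1.05%). With BCT, KLF10 accounted for 31.0 ± 2.83%, KLF4 for 19.5% and KLF6 for 17.4%, and the share of KLF3 was 10.6%. KLF11 went from 11.2 to 3.20% and KLF9 from 9.61 to 2.45% of the sum. KLF7, which rose about as much as the sum, took 3.57% with DMSO and 3.16% with BCT.

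In DMSO samples the order of levels was KLF3, KLF10, KLF4, KLF5, KLF11, KLF6, KLF9, KLF7, KLF2 and KLF13. The neighbours KLF10 and KLF4, KLF6 and KLF9, and KLF7 and KLF2 overlapped between samples. In BCT samples the order was KLF10, KLF4, KLF6, KLF3, KLF5, KLF11, KLF7, KLF9, KLF2 and KLF13, with overlap between KLF4 and KLF6, KLF3 and KLF5, and KLF11 and KLF7. KLF6 moved from the sixth place to the third.

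**Figure D3:**
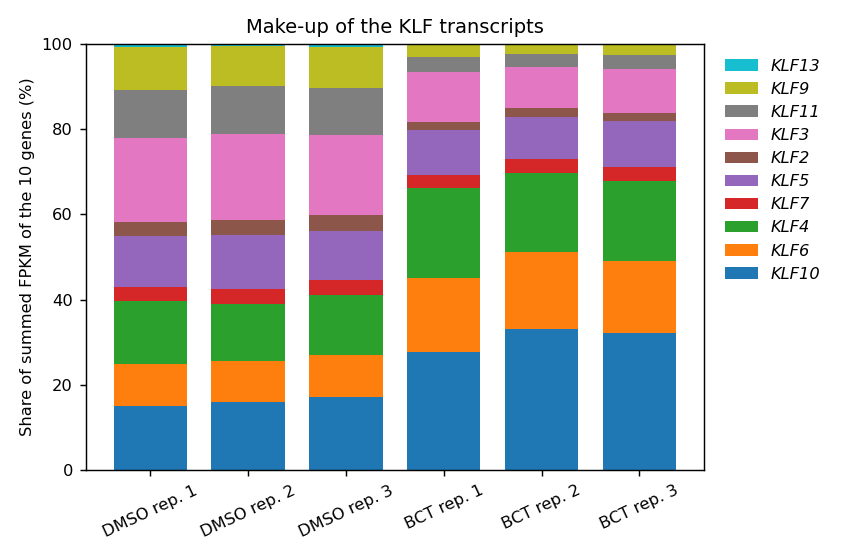
Share of each KLF gene in the summed FPKM of the 10 members, in percent, as a stacked bar for each of the 6 samples. KLF10 takes 16.0% of the sum on average with DMSO and 31.0% with BCT, and KLF3 takes 19.6 and 10.6%.

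Ratios of related members, taken within a sample, do not depend on its scaling. The ratio of KLF10 to KLF11 was 1.34, 1.41 and 1.54 in DMSO samples and 8.12, 11.1 and 10.1 in BCT samples. KLF6 to KLF7 went from 2.75 ± 0.122 to 5.51 ± 0.315 and KLF4 to KLF2 from 4.13 ± 0.460 to 10.0 ± 1.36. The ratio of KLF9 to KLF13, whose denominator is below the level for testing, was lower with BCT (14.5 ± 2.49 and 10.4 ± 1.44). The first 3 of these ratios were higher in every BCT sample than in every DMSO sample, although an exact permutation test of 3 against 3 cannot go below p = 0.1.

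Of the 2 other tested KLF genes, 0 were called higher and 1 lower, beside 13.9% and 17.8% of all tested genes. KLF15, a glucocorticoid-responsive factor of metabolic tissues on chr3:126061478-126076236 (hg19, minus strand), measured 9.72, 9.09 and 11.2 FPKM in DMSO samples but 1.86, 1.18 and 1.55 FPKM in BCT samples. It was 6.53-fold lower (log2 fold change -2.65, SE 0.15, limma adjusted p = 1.6e-06) and ranked 105th among the falls of all tested genes. KLF15 and KLF9 thus differed in size of change, and their ratio within samples (KLF9 to KLF15) went from 0.748 to 3.88. KLF16, an SP-like repressor, had a log2 fold change of -0.48 (limma adjusted p = 1.6e-04), which is short of the threshold, was 0.28 with equal FPKM sums and was -0.03 (limma adjusted p = 0.63) with correction for GC content and length. KLF12, another CTBP-binding repressor, was below the level for testing, at 0.954, 1.09 and 0.972 FPKM with DMSO and 0.537, 0.518 and 0.513 FPKM with BCT. KLF8 was at 0.221 and 0.301 FPKM on average, KLF1, KLF14 and KLF17 did not exceed 0.052 FPKM, and KLF18 was not analysed here.

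SP factors bind the same GC boxes, and 0 of their 5 tested genes were called. Of all tested genes, 13.9% were called higher and 17.8% lower. All 5 SP genes passed the false discovery rate but not the fold change threshold. SP1, the ubiquitous activator, was at 27.1 ± 0.961 FPKM with DMSO and 18.8 ± 0.447 FPKM with BCT (log2 fold change -0.52). SP3 (0.50), SP2 (0.31), SP4 (-0.23) and SP8 (-0.58) also stayed within the threshold. With equal FPKM sums, SP1 (0.24), SP4 (0.51) and SP8 (0.15) turned positive and SP2 (1.07) and SP3 (1.26) were called higher. Under that scaling, 5706 of all 12795 tested genes were called higher. With correction for GC content and length, SP3 was at 0.13 (limma adjusted p = 0.084).

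Of 19 listed regulators that act upstream of KLF genes, 18 were tested, 6 were called higher and 1 lower, beside 13.9% and 17.8% of all tested genes. Their median log2 fold change was 0.36. TGFBR2, the type II receptor for TGF-β, which induces KLF10 and KLF11, rose from 0.874 to 5.24 FPKM (log2 fold change 2.44, SE 0.14, limma adjusted p = 1.5e-06). It was below 1 FPKM in every DMSO sample (0.853 to 0.905 FPKM), so it reached the level for testing only through its BCT samples. When 1 was added in place of 0.1, its log2 fold change was 1.73. The transcript of NR3C1, the glucocorticoid receptor, an inducer of KLF9 and KLF15, rose from 4.14 ± 0.215 to 19.7 ± 1.98 FPKM. Its log2 fold change was 2.22 (SE 0.083, limma adjusted p = 3.9e-07). The paper reports the opposite direction for the receptor protein, which was lower after BCT in CRPC cells. The values given here are of RNA only, so the rise of the transcript does not show more receptor. MEF2A, of the MEF2 factors that activate KLF2 and KLF4, rose from 6.63 to 17.2 FPKM. With equal FPKM sums, 10 regulators were called higher, as were 5706 of all 12795 genes tested under that scaling. THRA, a thyroid hormone receptor, fell from 6.52 ± 0.507 to 1.25 ± 0.255 FPKM (log2 fold change -2.31, SE 0.14, limma adjusted p = 1.8e-06).

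Among 14 cofactors of KLF proteins, all tested, 2 were called higher and 3 lower, with a median of -0.24, shares close to the 13.9% and 17.8% of all tested genes. CREBBP and EP300, the acetyltransferases that act as coactivators, rose from 7.36 to 23.2 FPKM (log2 fold change 1.64) and from 11.3 to 34.5 FPKM (1.60). RBBP4, RBBP7 and HDAC1, parts of SIN3A and other histone deacetylase complexes, fell, with log2 fold changes of -1.45, -1.25 and -0.93. With equal FPKM sums these 3 kept a negative sign (-0.69, -0.48 and -0.16) but were not called.

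The list of proteins that modify, degrade or stabilize KLFs had 10 tested genes, of which 3 were called higher and 0 lower (13.9% and 17.8% of all tested genes), with a median of 0.57. ITCH, a ubiquitin ligase, rose from 12.7 to 26.7 FPKM (log2 fold change 1.07). FBXW7, which targets KLF5 for degradation, rose by 0.92 on the log2 scale, and FBXO32 by 0.89. With equal FPKM sums, 8 of the 10 were called higher, as were 5706 of all 12795 genes tested under that scaling. The FBXO32 call was lost without DMSO replicate 2 (0.84) or BCT replicate 2 (0.79), with a pseudocount of 1 (0.58) and with correction for GC content and length (0.74). The FBXW7 call was lost with a pseudocount of 1 (0.84), and both calls were lost in a test against the threshold itself.

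Of 20 genes known as KLF targets, 11 were tested, 2 were called higher and 5 lower (13.9% and 17.8% of all tested genes), and the median was -0.74. CDKN1A (p21), a cell cycle inhibitor induced by KLF4 and KLF6, rose from 49.3 ± 2.03 to 181 ± 18.9 FPKM (log2 fold change 1.87, SE 0.077, limma adjusted p = 5.4e-07). CDKN1B (p27) rose from 92.0 to 179 FPKM (log2 fold change 0.96). MAOA, CDKN1C (p57) and NOS3, the endothelial nitric oxide synthase activated by KLF2, fell, with log2 fold changes of -1.47, -1.40 and -1.20, and with equal FPKM sums these 3 were not called (-0.70, -0.67 and -0.44). S1PR1, a KLF2 target named after its values were seen, was below the level for testing, at 0.0200 to 0.0350 FPKM with DMSO and 0.338 to 0.449 FPKM with BCT.

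**Figure D4:**
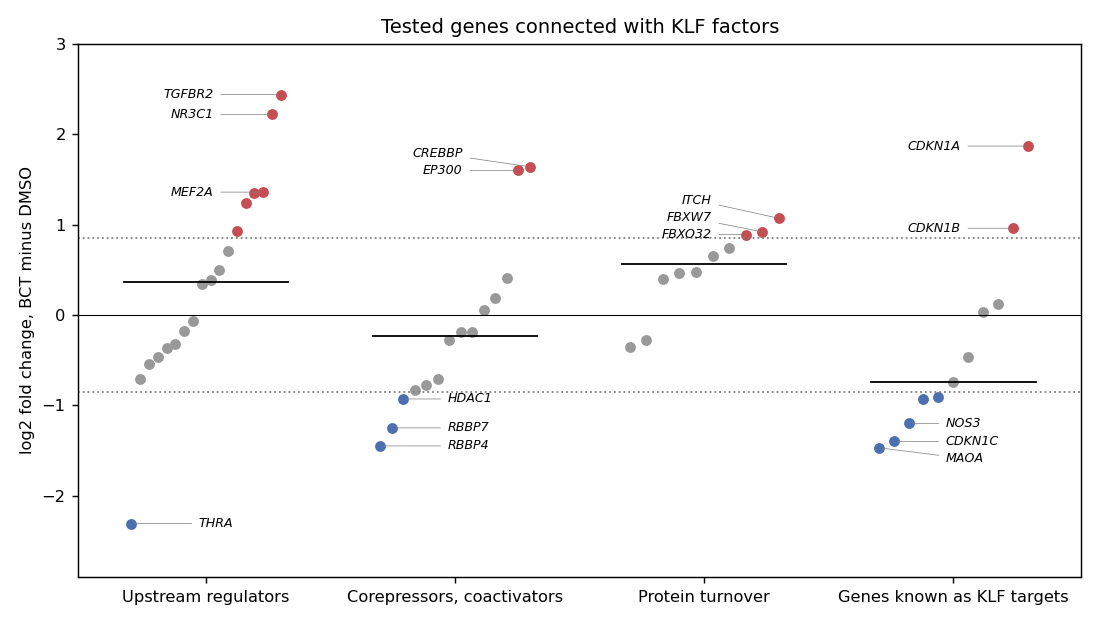
Log2 fold changes (BCT minus DMSO) of the tested genes in the lists of upstream regulators, cofactors, KLF protein turnover and KLF targets, each point a gene, horizontal bars the list medians and dotted lines the threshold. The medians are 0.36, -0.24, 0.57 and -0.74, and each list but turnover holds genes called in both directions.

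The genes whose pattern over the 6 samples was most like that of KLF10 were NPTX2, a neuronal pentraxin, SNHG12, a small nucleolar RNA host gene, and BIRC3, an inhibitor of apoptosis. Likeness was the root mean square distance between centred log2(FPKM + 0.1) values, which was 0.069, 0.085 and 0.103 for these genes. They rose from 0.290 to 2.09, from 14.4 to 92.6 and from 0.379 to 3.15 FPKM. NPTX2 and BIRC3 were below 1 FPKM in every DMSO sample, and their fold changes, on which the likeness rests, moved with the pseudocount. When 1 was added in place of 0.1, their log2 fold changes were 1.25 and 1.57, while those of SNHG12 and KLF10 were 2.58 and 2.47. KLF6 was the 8th nearest gene to KLF10 at a distance of 0.115, and KLF4 was 126th at 0.288.

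Members shared features of their mRNA that the choice by symbol did not use. Each had at least 2 copies of the pentamer ATTTA, the core of AU-rich elements that shorten mRNA half-life, in the 3′ UTR of its canonical hg19 transcript. Of the 11010 tested genes with a 3′ UTR, 57.4% had at least 2. The 10 members had a median of 5.5 copies against 2 for the tested genes, but also longer 3′ UTRs, with a median of 2750 against 1322 bases. Per kb the medians were 2.32 and 1.72. KLF5 (3.03 per kb) and KLF7 (2.83), which rose, had the highest densities, followed by KLF11 (2.58) and KLF9 (2.52), which were not called, and KLF13 had the lowest (0.893). KLF10 (2.23), KLF4 (2.22) and KLF6 (1.69), which rose most, lay below the median of the members. KLF6 also lay below the median of the tested genes. KLF15, which fell, had 3.66 per kb. Members had 2 to 6 exons, with a median of 4 against 9.

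The cells' identity was checked with marker genes. All 9 prostate luminal markers had a mean of at least 1 FPKM, and their sum was 989 to 1001 FPKM with DMSO and 1951 to 2109 FPKM with BCT, with KRT18 the most abundant. Of 5 fibroblast markers only COL1A1 was above that level (up to 6.31 FPKM), and the list summed to 2.57 to 2.73 FPKM with DMSO and 5.83 to 7.03 FPKM with BCT. The part of these marker changes in the KLF values was not tested. The 5 leukocyte markers summed to at most 1.02 FPKM and the 4 endothelial markers to at most 0.0810 FPKM in any sample. On the first principal component (72.0% of the variance) the groups stood apart, with BCT replicate 1 at 40.2 between the DMSO samples (-57.7 to -54.3) and the other BCT samples (63.8 and 65.0).

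**Figure D5:**
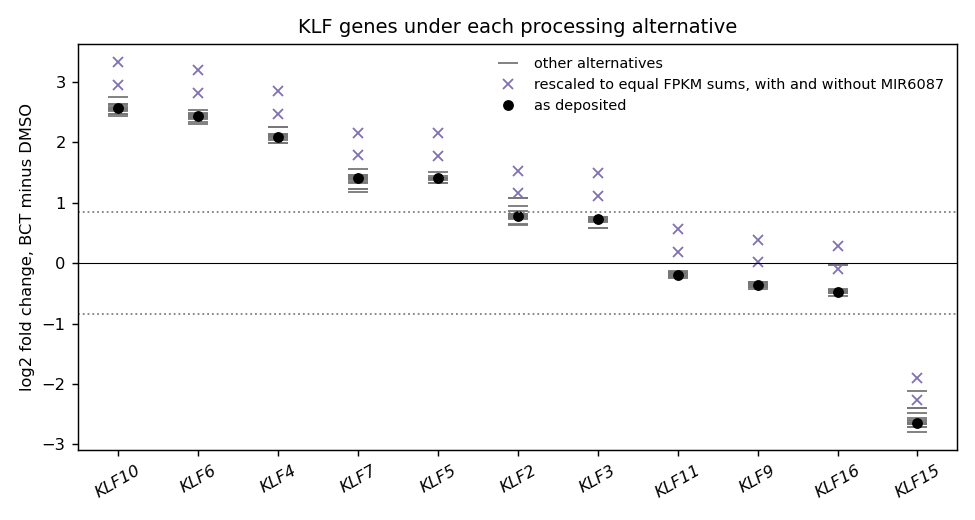
Log2 fold changes (BCT minus DMSO) of the tested KLF members, KLF15 and KLF16 as deposited (black points), rescaled to equal FPKM sums with and without MIR6087 (crosses) and under each other alternative (dashes), with dotted lines at the threshold of 0.85. KLF4, KLF5, KLF6, KLF7 and KLF10 stay above the threshold throughout, between 1.18 for KLF7 and 3.32 for KLF10, and KLF9 and KLF11 turn positive with equal FPKM sums.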

How the data were processed

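RNA of 22RV1 cells was sequenced from 3 DMSO and 3 BCT samples. The deposited FPKM values, 1 column per sample, were made by the authors from reads trimmed with Trimmomatic (0.38 in the submitters' processing notes) and aligned to hg19 with HISAT2. The paper names StringTie for quantification and the submitters' notes name HTSeq, and the annotation is not given in the sources used here. FPKM keep no read totals, so the depth behind a value and its counting error are unknown. The modal ratio of low values gave depths, relative to DMSO replicate 1, of 0.884 and 0.878 for the other DMSO samples and 1.06 to 1.13 for BCT.

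The 12729 genes whose mean over all samples reached 1 FPKM were tested with limma 3.58.1 (R 4.3.3) on log2(FPKM + 0.1), with an eBayes trend and Benjamini-Hochberg adjustment over all of them, without covariates. The thresholds on fold change and false discovery rate are those of the study's results text, which counts fewer changed genes than were called here. The methods of the study name a false discovery rate of 0.01, at which the same 5 members were called. The fit was tested on simulated data. No gene is targeted by BCT, so labels were checked by principal components only. Members and lists were chosen with earlier results of these data known. From each list of regulators, cofactors, turnover or targets, at most 3 called genes per direction were named, by absolute log2 fold change, besides the tested KLF and SP genes, transcripts overlapping members, MIR6087 and the 3 genes nearest to the strongest member. MIR2355 was listed at 0 in all samples, and MIR7845 at 0 in all but BCT replicate 3 (60.9 FPKM, limma adjusted p = 0.22). Gene positions are those listed with the deposited values, exons and 3′ UTRs are from GENCODE lifted to hg19, and promoters from RefSeq. A planned comparison of zinc finger residues was not made, and no protein sequence was analysed here. Alternatives covered pseudocounts, filters, scaling, correction for GC content and length, a replicate block, the moderation of variances, thresholds and leaving out each sample.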

Additional observations from a re-analysis of the deposited data

How the results depend on the processing

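Over 21 alternatives, KLF4, KLF5, KLF6, KLF7 and KLF10 were called higher in every one and no member was called lower. Of 188 values for the 9 tested members, 176 kept direction and side of the threshold, 8 (KLF2 and KLF3) passed it and 4 reversed. With equal FPKM sums, KLF9 (0.39), KLF11 (0.57), KLF16 (0.28), SP1 (0.24), SP4 (0.51) and SP8 (0.15) reversed. With MIR6087 left out of the sums, KLF9 (0.02), KLF11 (0.19) and SP4 (0.14) reversed in sign only, and missed the false discovery rate (limma adjusted p = 0.82, 0.07 and 0.24). Equal sums raised all genes called from 4027 to 6359 (5706 higher, 653 lower), the share called higher going from 43.8 to 89.7%, or to 74.1% without MIR6087. Testing against the fold change threshold itself left 2425 genes (1033 higher, 1392 lower). Without a filter, 2657 genes were called higher, and with a mean of at least 5 FPKM, 1150. With equal sums, 10 regulators, 4 cofactors, 8 turnover genes and 2 SP genes were called higher, and 0 cofactors and 0 targets lower. Without MIR6087 in the sums, 3402 genes (6 of turnover and 1 SP gene among them) were called higher and 1191 (2 targets) lower. Turnover had 1 called gene with a pseudocount of 1. A mean of at least 5 FPKM left 3 regulators higher and 0 lower. TGFBR2, FOXO1, MEF2C and THRA lay below that mean and were not tested there. Testing against the threshold left 1 turnover gene and 1 target higher and 3 targets lower. The causes of the other differences between settings were not tested.

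Correction for GC content and length, available for 90.7% of tested genes, raised KLF2 to 1.07, so that 6 members were called, and gave 2 regulators and 3 targets lower, with or without the replicate block. Same-numbered samples did not deviate together beyond r = 0.116, 0.033 and 0.034, so the numbers were not taken as pairs. With the replicate block 4033 genes and 5 members were called, and the block changed no call of a member, although KLF11, which was not called, then missed the false discovery rate (adjusted p = 0.055). The rise of the 5 called members did not hinge on any single sample, the lowest value on leaving one out being 1.32. FPKM without read totals limit what can be said of KLF13.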
